A study of Mus musculus with 14 samples.

Results

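The retinoic acid genes examined here were Aldh1a1 with its neighbour Aldh1a7, the receptor genes Rara, Rarb, Rarg and Rxra, the degrading enzyme gene Cyp26b1 and the uptake receptor gene Stra6. Their open chromatin was read from bulk ATAC-seq, in which the transposase Tn5 cuts accessible DNA, of haematopoietic stem cells of the long-term type (LT-HSCs) sorted from mice by the markers Lin-, Sca1+, CD34-, Flt3- and cKit+. A consensus peak belonged to one of these 8 genes if no other protein-coding span was nearer and the distance was at most 50 kb, or if the peak lay within 1 kb of an end of the span. This gave 61 of 57289 peaks, each 700 bp wide: 17 at Rarb, 13 at Rxra, 12 at Rara, 8 at Cyp26b1, 6 at Rarg, 4 at Aldh1a1, 1 at Aldh1a7 and 0 at Stra6. Peaks are numbered from low to high coordinate within each gene.

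The 14 libraries came from C57BL/6 mice in 3 groups. Aged Ri cells came from animals over 80 weeks old and were given 100 µM Rhosin, an inhibitor of the small GTPase RhoA (n = 5). Aged cells came from animals over 80 weeks old (n = 5) and young cells from animals of 10 to 16 weeks (n = 4), both without the inhibitor. Cells of all 3 groups spent 16 h in culture at 37 °C and 3% oxygen before lysis, so no group was freshly isolated. The number of animals behind a library is not given in the sources used here, and the p-values measure the spread between these libraries.

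Vitamin A reaches cells as retinol, which dehydrogenases turn into retinal and the cytosolic ALDH1A enzymes into retinoic acid. Retinoic acid binds nuclear receptors of the RAR family, which sit on DNA as heterodimers with an RXR at paired half-sites, and enzymes of the CYP26 family break it down. In blood stem cells, retinoic acid signalling is known for its part in keeping cells dormant and in steering differentiation, and ALDH activity is a common marker of stem and progenitor cells.

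The sequences before 3 start sites that lay inside peaks are shown, and no result was tested against them. They are the 250 bases before the inner Aldh1a1 start (chr19:20601718-20601967, plus strand), the Aldh1a7 start (chr19:20727557-20727806, minus strand) and the Rarb start (chr14:16575477-16575726, minus strand). All are from RefSeq on GRCm38.p6, written 5′ to 3′ in the direction of the gene, with capitals marking receptor half-sites (AGGTCA or AGTTCA or GGGTCA or GGTTCA, on either strand).
Aldh1a1 inner start: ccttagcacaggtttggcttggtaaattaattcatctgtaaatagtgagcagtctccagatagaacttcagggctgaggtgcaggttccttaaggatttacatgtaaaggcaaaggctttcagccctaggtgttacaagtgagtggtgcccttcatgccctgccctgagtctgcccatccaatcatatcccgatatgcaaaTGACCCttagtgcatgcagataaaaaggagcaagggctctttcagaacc
Aldh1a7 start: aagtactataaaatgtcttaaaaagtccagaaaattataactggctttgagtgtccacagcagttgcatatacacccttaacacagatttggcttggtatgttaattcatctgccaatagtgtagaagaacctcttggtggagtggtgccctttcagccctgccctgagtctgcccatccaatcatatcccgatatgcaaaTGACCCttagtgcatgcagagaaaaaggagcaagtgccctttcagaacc
Rarb start: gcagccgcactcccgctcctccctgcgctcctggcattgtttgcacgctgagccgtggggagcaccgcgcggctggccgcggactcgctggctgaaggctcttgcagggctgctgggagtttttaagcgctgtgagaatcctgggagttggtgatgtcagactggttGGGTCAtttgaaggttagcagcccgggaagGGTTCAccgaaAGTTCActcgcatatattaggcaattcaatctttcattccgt

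The Rarb sequence held 3 half-sites, of which 2 formed a direct repeat with 5 bases between them, starting 53 bases before the start. Such a repeat on either strand was present in 29 of 32841 mouse promoters of the same length (0.0883%), and at least 1 half-site in 38.6% of them. The inner Aldh1a1 and Aldh1a7 sequences each held 1 half-site, on the minus strand of the gene and 49 bases before the start. These sequences of Aldh1a1 and Aldh1a7 were identical at 94 of the last 100 bases and shared a run of 65 bases without a difference, with 73.6% identity over 235 paired bases. Reads from the pair of start sites may therefore have been split or lost by the mapping, and values of Aldh1a1 peak 3 and Aldh1a7 peak 1, which lie on them, are uncertain to that extent. The matches are letters in these windows, and receptor binding was not measured.

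Libraries held 765533 to 3176246 counts in peaks, and the median peak had 7 to 30 counts per library, so single peaks carry a large counting error. Young 3 was the shallowest, at 765533 counts and a median of 7. Peaks at the ends of 7 of the 8 stem cell marker genes examined were found, with summed accessibility of 158 to 245 CPM (counts relative to library size, with TMM scaling) in aged Ri, 190 to 271 CPM in aged and 197 to 340 CPM in young libraries; Slamf1 had none. All 4 megakaryocyte markers had an end peak, summing to 133 to 209 CPM in aged Ri, 180 to 263 CPM in aged and 84.4 to 179 CPM in young libraries. Of the B cell markers, Pax5 and Ms4a1 had no such peak, and Cd79a had 17.4 to 40.0 CPM in aged Ri, 21.1 to 45.4 CPM in aged and 40.5 to 77.3 CPM in young libraries. The part of these markers in the results was not tested. Counts at gene ends made up 42.5 ± 4.55% of a library in aged Ri (SD, n = 5), 42.6 ± 4.40% in aged (SD, n = 5) and 48.7 ± 1.94% in young libraries (SD, n = 4). Aged 5 had 49.6%, inside the young range of 47.0 to 50.8%, and aged 1 to 4 had 39.8, 38.8, 40.7 and 44.0%. The part of this share in the aged 5 values was not tested. For aged against young the 2-sided exact permutation p within batches was 0.0278, the smallest that its 36 arrangements allow.

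Of the 61 peaks, 8 lay within 1 kb of a gene end, 46 in a gene span and 7 between genes. A RefSeq start site lay inside 6 of them: Aldh1a1 peak 3, Aldh1a7 peak 1, Rara peak 3, Rarb peak 9 and Rarg peaks 4 and 6. No peak covered the outer Aldh1a1 start or the Cyp26b1 start. Their mean accessibility was ordinary: 26 of the 61 were above the median of all peaks (9.23 CPM). Rara peak 4 was the strongest, at 49.4 CPM over all libraries, the 93.1 percentile of all peaks. After the filter on low counts, 60 peaks were tested, all except Cyp26b1 peak 3.

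The synthesis gene Aldh1a1 had the clearest difference between aged and young cells. Its peaks 3 and 4, on and behind the inner start site, were 2.70-fold and 4.41-fold more accessible in aged than in young LT-HSCs, and neither passed the test in aged Ri against aged cells. Over all genes examined, aged against young gave 3 of 60 tested peaks that were higher and 0 that were lower at an adjusted p under 0.05 (edgeR quasi-likelihood test with Benjamini-Hochberg adjustment over 56235 peaks), against 4.45% higher and 1.26% lower of all peaks. That share of members is near the background, so the result is about single peaks and not about the set. The third called peak was Rarb peak 12, and the count at an unadjusted p under 0.05 was 11 higher and 4 lower. Without young 4 the adjusted counts were 7 higher and 1 lower, and without aged 4 they were 4 higher and 1 lower. No share of all peaks is given beside the unadjusted and left-out counts, so they are not read as results about the set. The lower peak was Rara peak 3, described with that gene.

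**Figure D1:**
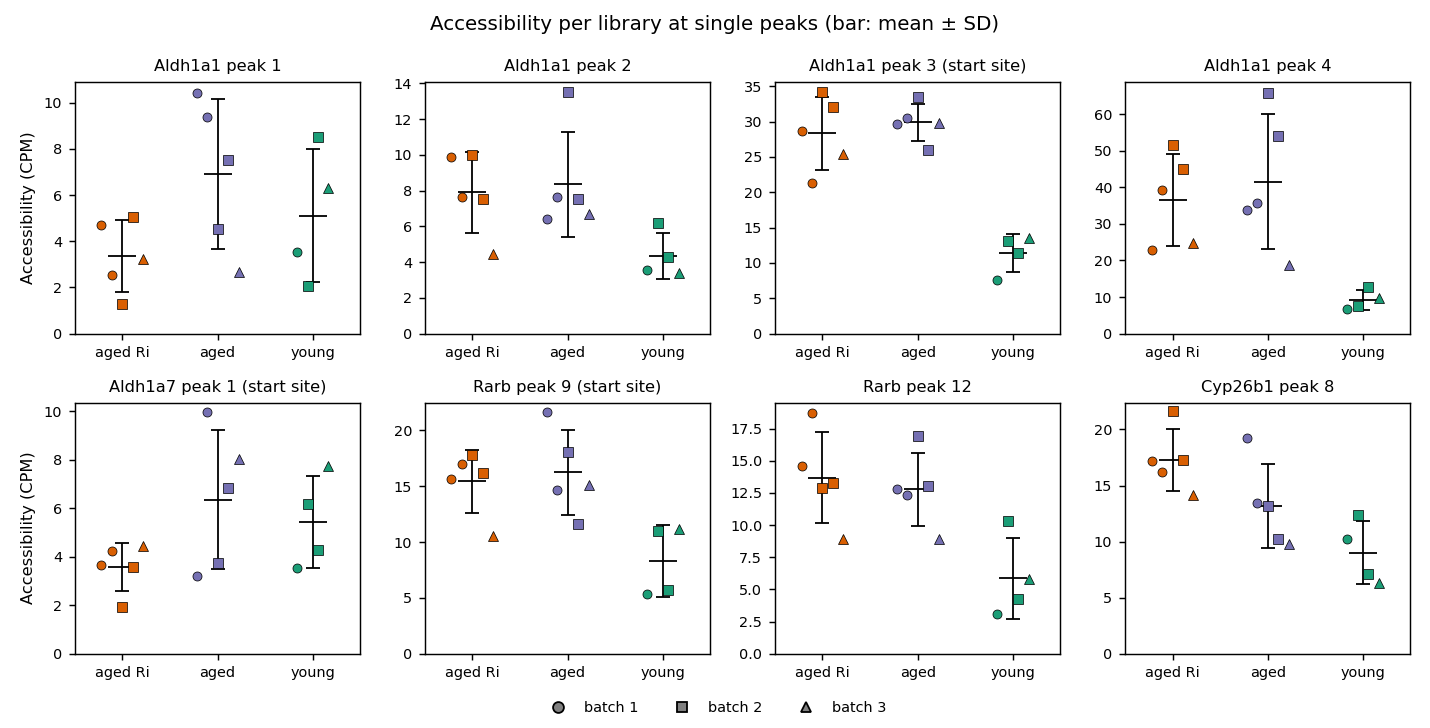
Accessibility in CPM (vertical axes, from 0) of 8 peaks in each library of the aged Ri, aged and young groups (horizontal axes). Points are libraries, their shape gives the sequencing batch, and bars are the mean ± SD. At Aldh1a1 peaks 3 and 4 all aged Ri and aged libraries lie above all young ones, and at Aldh1a7 peak 1 the groups overlap.

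Aldh1a1 encodes a cytosolic retinal dehydrogenase, and its span (chr19:20492583-20643463) begins at an outer start that had no peak. Peak 4 (chr19:20614112-20614811) lay in the gene, 12493.5 bp downstream of the inner start at its centre. It had 22.9, 39.2, 51.6, 45.0 and 24.7 CPM in aged Ri libraries 1 to 5, 33.7, 35.7, 65.8, 54.1 and 18.7 CPM in aged libraries 1 to 5, and 6.66, 7.56, 12.8 and 9.67 CPM in young libraries 1 to 4. Every aged and aged Ri library was above every young one, and the lowest of the aged libraries was aged 5, the one of batch 3. The log2 fold change of aged over young was 2.14 ± 0.28 (SE, edgeR adjusted p = 1.2e-05), and the batches gave 2.22, 2.48 and 0.88. It stayed called whichever library was left out, at 1.90 to 2.48.

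Aldh1a1 peak 3 (chr19:20601578-20602277) covered the inner start shown above. It had 28.6, 21.3, 34.2, 32.0 and 25.5 CPM in aged Ri libraries, 29.7, 30.5, 33.5, 26.0 and 29.8 CPM in aged libraries, and 7.55, 13.1, 11.4 and 13.5 CPM in young libraries. The aged libraries were close together (29.9 ± 2.66 CPM, SD, n = 5), the young ones lower (11.4 ± 2.72 CPM, SD, n = 4), and the groups did not overlap. Aged exceeded young by a log2 fold change of 1.43 ± 0.25 (SE, edgeR adjusted p = 0.000413), with 1.86, 1.21 and 1.08 in batches 1 to 3. Left-out libraries gave 1.25 to 1.59, all called.

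The other Aldh1a1 peaks were weak. Peak 2 (chr19:20558656-20559355), in the span between the outer and inner starts, averaged 7.91 ± 2.26 CPM in aged Ri, 8.35 ± 2.94 CPM in aged and 4.35 ± 1.28 CPM in young libraries (SD, n = 5, 5 and 4). The aged and young libraries did not overlap there, but the log2 fold change of 0.97 missed the threshold (edgeR adjusted p = 0.0955). Young 3, the shallowest library, had 3 counts at peak 2. Peak 1 (chr19:20449411-20450110), before the outer start, overlapped between all groups at 3.36 ± 1.54 CPM in aged Ri, 6.90 ± 3.26 CPM in aged and 5.11 ± 2.87 CPM in young libraries. Summed over the 4 peaks, Aldh1a1 had 78.3 ± 16.9 CPM in aged Ri, 89.4 ± 24.1 CPM in aged and 28.1 ± 5.62 CPM in young libraries. That sum was 3.14-fold higher in aged than in young cells (log2 1.65 ± 0.18, SE, edgeR adjusted p = 4.1e-06 over 16561 genes). In bulk cells, more cells with an open site and a more open site in each cell cannot be told apart. The summed megakaryocyte markers given above also ran higher in aged than in young libraries, and the aged range started just above the top of the young one; their part in the Aldh1a1 difference was not tested.

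Aldh1a7, a close paralogue next to Aldh1a1 on the same chromosome (chr19:20692953-20727556), was not called in any comparison. Its one peak, on the start site, had 3.64, 4.26, 1.94, 3.60 and 4.45 CPM in aged Ri libraries, 3.21, 9.96, 3.76, 6.84 and 8.02 CPM in aged libraries, and 3.55, 6.18, 4.26 and 7.74 CPM in young libraries. The aged values spanned the whole young range. Its log2 fold change was 0.24 ± 0.38 for aged over young (SE, edgeR adjusted p = 0.753), and the peak held only 9.57 counts per library on average. The difference between the Aldh1a1 and Aldh1a7 changes itself was not tested.

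**Figure D2:**
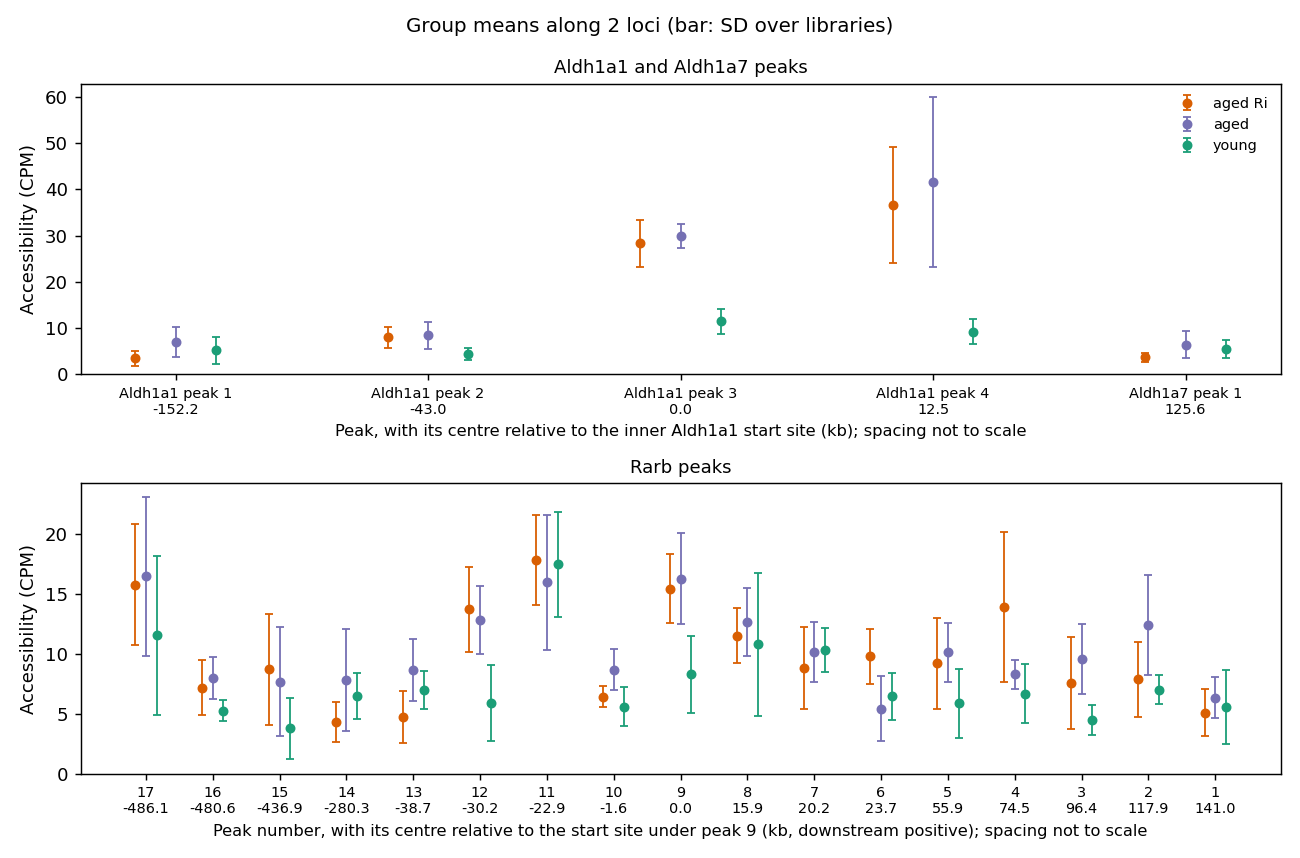
Mean accessibility in CPM (vertical axes, bars are the SD over libraries) of each Aldh1a1, Aldh1a7 and Rarb peak in aged Ri, aged and young libraries, ordered along the genes. Numbers under the peaks give the distance of the peak centre from the start site in kb. At Aldh1a1 the aged and aged Ri means separate from the young mean at peaks 3 and 4, and at Rarb most aged means are above the young ones, with overlapping bars at most peaks.

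Among the receptor genes, the Rarb sum was higher in aged than in young cells, while those of Rara, Rarg and Rxra did not pass. Rarb encodes RAR beta, a receptor whose own gene is a textbook target of retinoic acid through the direct repeat shown above. Its 17 peaks were spread over a span of 651493 bp (chr14:16430839-17082331), and 14 had a log2 fold change above 0 for aged over young. All 17 were gene-span peaks, and their median was 0.47, against 0.10 over all 22612 gene-span peaks tested. Peaks of one gene are not replicates, and the share of all peaks above 0 is not given. Summed over the 17 peaks, Rarb had 173.7 ± 39.0 CPM in aged Ri, 182.4 ± 35.6 CPM in aged and 120.3 ± 8.21 CPM in young libraries (SD, n = 5, 5 and 4). Every aged library, from 133.5 CPM, was above every young library, up to 126.5 CPM. The sum was 1.47-fold higher in aged than in young cells (log2 0.55 ± 0.15, SE, edgeR adjusted p = 0.0272), and Rarb and Aldh1a1 were the 2 of 7 genes whose sums were called, against 4.46% higher of all genes. The genes were chosen with earlier results of these data known, so this share is not read as a result about the set. The batches gave 0.90, 0.55 and 0.11, so batch 3, with a single library per group, showed little of it. The call was lost without any single one of young 1, 2 or 3 or aged 1, 2 or 3 (log2 0.42 to 0.57, adjusted p = 0.0575 to 0.220), and with the share of counts at gene ends as a covariate (0.21, adjusted p = 0.749). The strongest Rarb peak, peak 11, had 17.8 ± 3.73 CPM in aged Ri, 15.9 ± 5.61 CPM in aged and 17.5 ± 4.38 CPM in young libraries. Its log2 fold change of aged over young was -0.06 ± 0.26 (SE, edgeR adjusted p = 0.923), so it did not share the higher sum.

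The peak over the Rarb start and its direct repeat was peak 9 (chr14:16575086-16575785). It had 15.6, 17.0, 17.8, 16.2 and 10.5 CPM in aged Ri libraries, 21.7, 14.6, 18.0, 11.6 and 15.1 CPM in aged libraries, and 5.33, 10.996, 5.68 and 11.1 CPM in young libraries. All aged libraries were above all young ones, although aged 4 by little. The log2 fold change of 0.92 ± 0.30 did not pass (SE, edgeR adjusted p = 0.0631). Rarb peak 3, in the gene, was the other Rarb peak whose aged and young libraries did not overlap, at 0.94 (edgeR adjusted p = 0.134). Young 3, the shallowest library, had 2 counts at peak 3 and 4 at peak 9. In all, 5 of the 60 tested peaks were higher in every aged than in every young library and 0 were lower, against 4.41% and 1.67% of all peaks.

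The called Rarb peak was peak 12 (chr14:16605292-16605991), upstream of the start under peak 9 (centre at -30165.5 bp) and inside the Rarb span. It had 14.6, 18.7, 12.9, 13.3 and 8.89 CPM in aged Ri libraries, 12.8, 12.3, 16.9, 13.0 and 8.91 CPM in aged libraries, and 3.11, 10.3, 4.26 and 5.80 CPM in young libraries. Young 2 was above aged 5, so the groups overlapped. Aged over young gave a log2 fold change of 1.09 ± 0.33 (SE, edgeR adjusted p = 0.0431), and the batches gave 1.72, 1.04 and 0.54. The call was lost without young 1 or 3 or aged 1, 2 or 3 (0.70 to 1.10, adjusted p = 0.0737 to 0.330), and under each of 5 other settings given in the closing section. Its mean accessibility was near the middle of all peaks (58.5 percentile), and at 21.9 counts per library on average its counting error is large.

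Rara encodes RAR alpha, the receptor best known in blood cells from its fusion in acute promyelocytic leukaemia. Of its 12 peaks (span chr11:98927800-98974942), 9 had a log2 fold change below 0 for aged over young, and 0 were called. The median of the 12 was -0.27, against -0.01 over all peaks tested. Peak 3 (chr11:98937331-98938030), over a start site, had 28.1, 29.8, 20.3, 38.1 and 39.2 CPM in aged Ri libraries, 18.4, 17.0, 16.5, 30.8 and 47.6 CPM in aged libraries, and 35.1, 48.8, 31.2 and 58.5 CPM in young libraries. Aged 1 to 4 were below every young library and aged 5 was not. The log2 fold change was -0.74 ± 0.24 (SE, edgeR adjusted p = 0.0581), and it passed without young 4, aged 4 or aged 5 (-0.81 to -0.93, adjusted p = 0.0259 to 0.0448). Peak 3 and peak 4 are also at an end of Gm46294, and their signal cannot be assigned to one gene. Over all 13728 gene-end peaks tested the median log2 fold change was -0.22, and over the 8 of these genes it was -0.26.

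Summed over its peaks, Rara had 180.9 ± 10.5 CPM in aged Ri, 144.8 ± 32.5 CPM in aged and 179.2 ± 11.3 CPM in young libraries. Aged 5, at 201.3 CPM, was the highest aged library and above every young one. Aged over young gave a log2 fold change of -0.31 ± 0.12 (SE, edgeR adjusted p = 0.115), and it passed without aged 5 (-0.41, adjusted p = 0.0324) and with the replicate number as a block (-0.40, adjusted p = 0.0328), although the numbers do not pair young with aged libraries. The within-batch differences were -0.41, -0.47 and 0.10.

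Rarg, the gene of RAR gamma, which has been tied to stem cell self-renewal, had 111.0 ± 13.2 CPM in aged Ri, 95.4 ± 13.6 CPM in aged and 78.6 ± 27.3 CPM in young libraries over 5 peaks (span chr15:102234938-102257522). The young libraries spread widely, with young 4 at 116.9 CPM and the lowest at 54.1 CPM. Aged over young came to a log2 fold change of 0.34 ± 0.15 (SE, edgeR adjusted p = 0.165), and 0.55 without young 4 (adjusted p = 0.0222). Its strongest peak, peak 3, behind the inner start, had 35.1 ± 7.79 CPM in aged Ri, 34.5 ± 8.82 CPM in aged and 25.6 ± 15.3 CPM in young libraries, and aged over young passed there only without young 4 (0.92, edgeR adjusted p = 0.0192). Peak 1 lies at an end of Itgb7 and is nearer to that gene, so the sum leaves it out.

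Rxra, the gene of the common heterodimer partner RXR alpha, was level: 120.6 ± 20.1 CPM in aged Ri, 122.4 ± 9.68 CPM in aged and 125.4 ± 19.97 CPM in young libraries over 13 peaks (span chr2:27676445-27763319). For aged over young it was -0.06 on the log2 scale, with a 95% interval (normal, from the SE) of -0.30 to 0.18. Its strongest peak, peak 10, averaged 24.4 ± 4.28 CPM in aged Ri, 22.8 ± 5.69 CPM in aged and 23.3 ± 6.29 CPM in young libraries. None of the 13 peaks was called in any comparison.

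Cyp26b1 encodes an enzyme that oxidises retinoic acid for removal. Its 8 peaks (span chr6:84571414-84593908, and 4 peaks beyond the span) summed to 90.1 ± 16.4 CPM in aged Ri, 76.1 ± 6.19 CPM in aged and 61.4 ± 8.70 CPM in young libraries. For aged over young the log2 fold change was 0.29 ± 0.15 (SE, edgeR adjusted p = 0.249). The strongest peak, peak 6, had 18.9 ± 3.73 CPM in aged Ri, 18.3 ± 2.51 CPM in aged and 18.6 ± 3.91 CPM in young libraries. Stra6, the membrane receptor that takes up retinol (chr9:58063793-58154004), had no peak of its own. The peak nearest to its span was 24783 bp away and belonged to Ccdc33, and each of the 3 peaks within 50 kb was nearer to another gene.

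**Figure D3:**
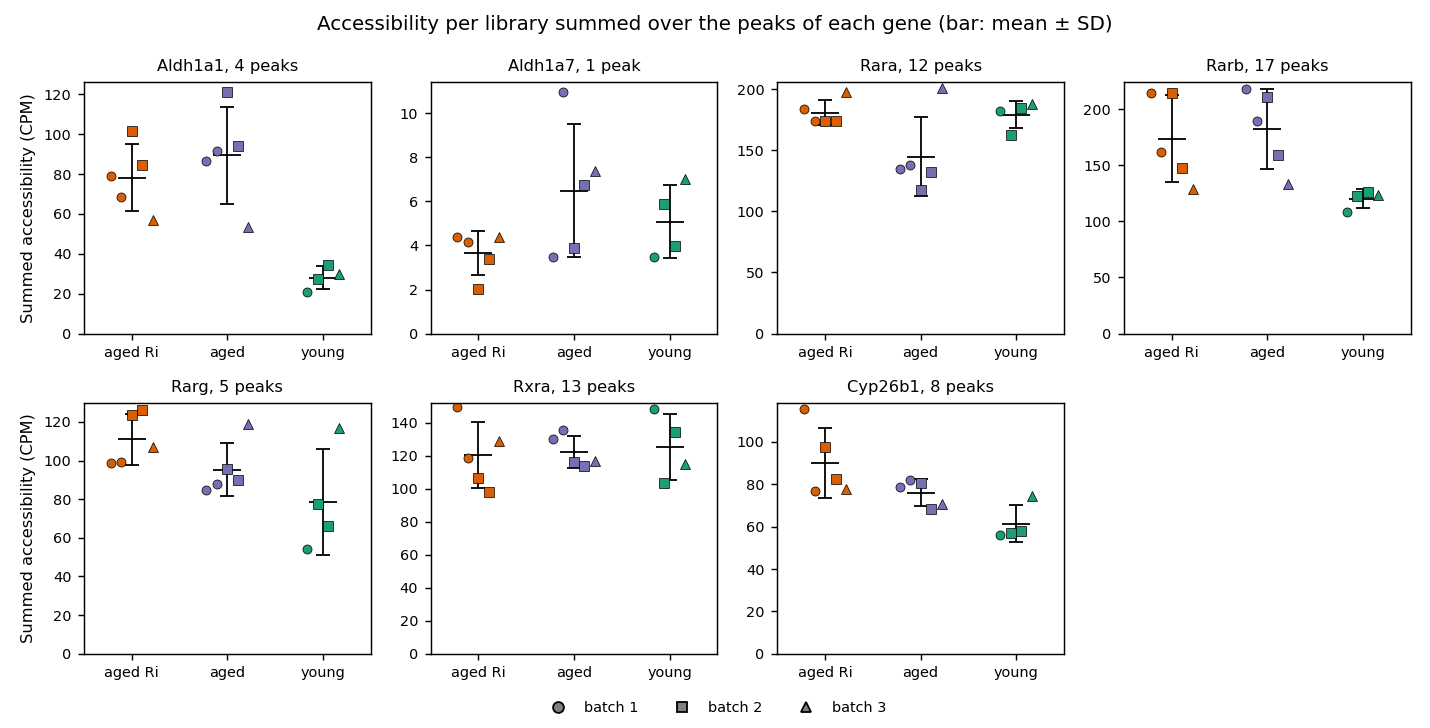
Accessibility in CPM summed over the peaks of each gene (vertical axes, from 0) in each library of the aged Ri, aged and young groups (horizontal axes). Points are libraries with the batch as shape, and bars are the mean ± SD. The aged Ri and aged libraries lie above the young ones for Aldh1a1 and Rarb, and the groups overlap for Rxra.

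Per 700 bp peak, and averaged over all 14 libraries, the order of accessibility was Rarg (19.2 ± 4.30 CPM), Aldh1a1 (17.0 ± 7.83 CPM), Rara (13.96 ± 2.20 CPM), Cyp26b1 (9.61 ± 1.99 CPM), Rarb (9.50 ± 2.37 CPM), Rxra (9.43 ± 1.21 CPM) and Aldh1a7 (5.08 ± 2.31 CPM; SD, n = 14 each). Only Rara and Cyp26b1, and Rxra and Aldh1a7, were neighbours that differed by more than the SD of both. Aldh1a1 had the largest spread. Per peak it had 22.3 ± 6.04 CPM in aged cells, the highest mean of the 7 genes, and 7.02 ± 1.40 CPM in young cells, where Aldh1a7 alone had a lower mean.

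In the model of group and sequencing batch, Rhosin treatment of aged cells changed none of these genes past the threshold. Aged Ri against aged gave 0 of 60 peaks and 0 of 7 summed genes (edgeR adjusted p under 0.05), against 0.446% of all peaks and 0.139% of all genes. At an unadjusted p under 0.05 by edgeR, 8 peaks were higher and 4 lower, with no share of all peaks given beside them. DESeq2 called 0 peaks as well. Same-numbered aged Ri and aged libraries shared a batch and deviated together, and with the replicate number as a block 2 of 57 peaks were higher, against 2.89% of all peaks. They were Rarb peak 4 (log2 0.81, edgeR adjusted p = 0.0355 with the block and 0.273 without) and Rara peak 7 (1.00, edgeR adjusted p = 0.0495 with the block and 0.238 without), which were singled out after their values were seen.

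At Aldh1a1, none of the 4 peaks passed in aged Ri against aged cells, and all 4 estimates were below 0. The log2 fold change of aged Ri over aged was -0.15 for peak 4 (95% interval -0.57 to 0.26, edgeR adjusted p = 0.903), -0.08 for peak 3 (-0.47 to 0.31, adjusted p = 0.962) and -0.18 for the sum (-0.46 to 0.10, adjusted p = 0.852). Peak 1, the weak peak before the outer start, gave -0.90 (95% interval -1.70 to -0.10, unadjusted p = 0.0336, edgeR adjusted p = 0.433). The within-batch differences of the sum were -0.27, -0.20 and 0.09. The aged over young change of that sum was 1.65, and a fall of that size lies outside the interval. Aldh1a7 peak 1 was lower in aged Ri cells by the point estimate (-0.85 ± 0.36, SE), which did not pass (edgeR adjusted p = 0.384).

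At Rara the estimates were mostly above 0 and short of the threshold, in 10 of 12 peaks. Their median was 0.23, against -0.02 over all peaks tested. The Rara sum was 1.26-fold higher in aged Ri than in aged cells (log2 0.34 ± 0.11, SE, edgeR adjusted p = 0.297, and 0.0864 with the replicate block), and the batches gave 0.39, 0.48 and -0.02. Peak 2 of Rara (chr11:98932960-98933659) had 16.7, 23.0, 20.3, 16.9 and 19.0 CPM in aged Ri libraries and 15.2, 11.7, 11.7, 8.90 and 16.5 CPM in aged libraries. It was the 1 member peak with every aged Ri library above every aged one, against 0.903% of all peaks, although aged Ri 1 cleared aged 5 by little. Its log2 fold change of 0.58 did not pass (edgeR adjusted p = 0.325). Rara peak 7, inside the gene, had 5.73, 5.11, 12.9, 11.9 and 6.87 CPM in aged Ri libraries and 8.82, 3.51, 4.51, 4.11 and 2.23 CPM in aged libraries. Both batch 2 libraries of aged Ri were high there and aged 1 was above 3 of the aged Ri libraries.

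Rarb peak 4 (chr14:16500614-16501313), inside the gene, had 10.9, 7.66, 24.2, 12.6 and 14.2 CPM in aged Ri libraries, 9.62, 7.62, 7.90, 6.84 and 9.35 CPM in aged libraries, and 5.77, 4.12, 9.94 and 6.77 CPM in young libraries. Aged Ri 3 stood above all others, and aged Ri 2 was at the aged level. The Rarb sum did not follow this peak, at a log2 fold change of -0.07 (95% interval -0.33 to 0.19). For Rarg, Cyp26b1 and Rxra the sums gave 0.23 (adjusted p = 0.705), 0.24 (0.680) and -0.03 (0.989) by edgeR.

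**Figure D4:**
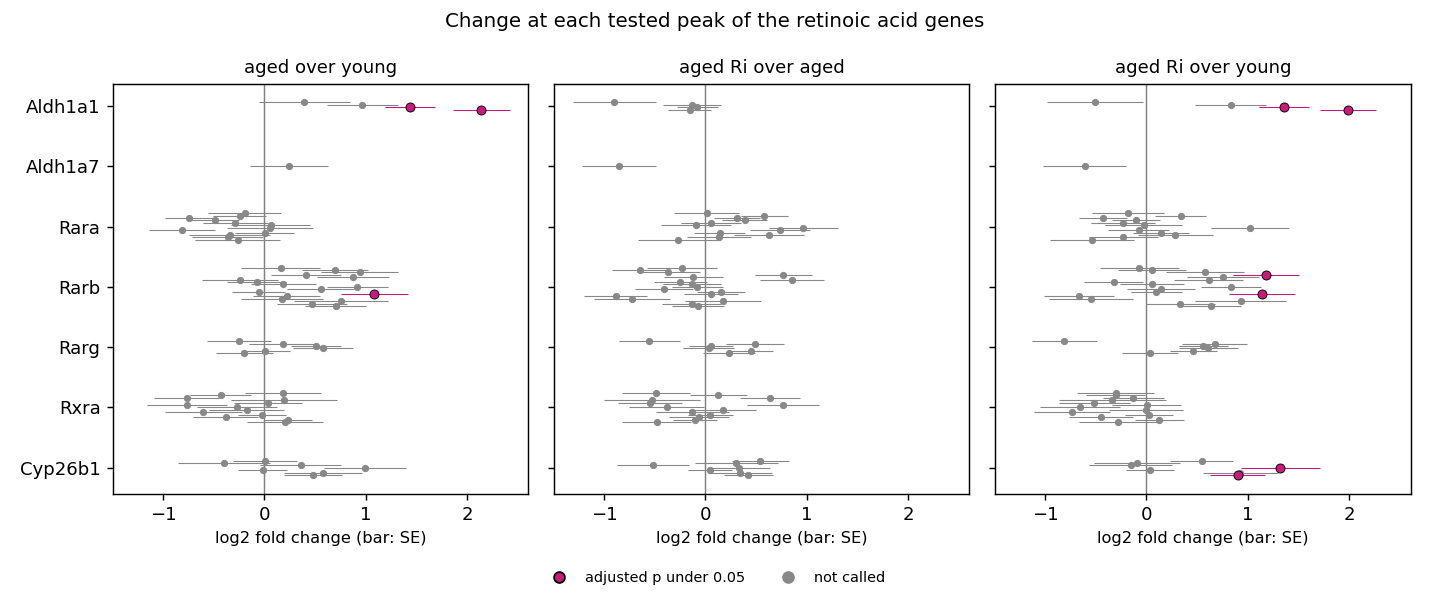
The log2 fold change of each of the 60 tested peaks (horizontal axes, bars are the SE), grouped by gene (vertical axis), for aged over young, aged Ri over aged and aged Ri over young. Filled coloured points passed an adjusted p of 0.05. The 2 right-most points of the first panel are Aldh1a1 peaks 3 and 4, no point passed in the middle panel, and 6 passed in the last.

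Against young cells, aged Ri cells were higher at 6 of the 60 peaks and lower at 0 (edgeR adjusted p under 0.05), against 7.9% higher and 3.56% lower of all peaks. This comparison shares its libraries with the previous ones. The 6 peaks were Aldh1a1 peak 4 (log2 1.99 ± 0.28, adjusted p = 1.8e-05), Aldh1a1 peak 3 (1.36 ± 0.25, adjusted p = 0.000380), Rarb peaks 4 and 12, and Cyp26b1 peaks 5 and 8. Both Aldh1a1 calls held whichever library was left out, and 3 peaks were called without young 1 or without aged Ri 3, and 11 without young 4, all higher. The shares of all peaks in these left-out fits are not given. Rarb peak 4 changed by 1.18 ± 0.33 (SE, edgeR adjusted p = 0.0162), and without aged Ri 3 by 0.91 (adjusted p = 0.0971). Rarb peak 12 changed by 1.141 ± 0.33 (SE, edgeR adjusted p = 0.0198), and without young 1 by 0.77 (adjusted p = 0.183).

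Both Cyp26b1 peaks lay inside the gene. Peak 8 (chr6:84589951-84590650) had 17.2, 16.2, 21.6, 17.3 and 14.2 CPM in aged Ri libraries, 19.2, 13.5, 13.2, 10.3 and 9.80 CPM in aged libraries, and 10.2, 12.4, 7.11 and 6.29 CPM in young libraries. Every aged Ri library was above every young one, and the aged libraries lay across both ranges. Aged Ri over young gave a log2 fold change of 0.90 ± 0.27 (SE, edgeR adjusted p = 0.0278), lost without young 1, 3 or 4 or aged Ri 3 or 5 (0.82 to 0.92, adjusted p = 0.0554 to 0.0905). Peak 5 (chr6:84579389-84580088) averaged 7.91 ± 2.59 CPM in aged Ri, 6.73 ± 2.51 CPM in aged and 3.38 ± 1.39 CPM in young libraries, and its change of 1.32 (edgeR adjusted p = 0.0239) was lost without young 1 or 2 or aged Ri 1 or 3 (1.11 to 1.36, adjusted p = 0.0561 to 0.0985).

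By summed genes, 4 of 7 were higher in aged Ri than in young cells, against 8.45% of all genes. That share is not read as a result about the set either, since the genes were chosen with earlier results known. Aldh1a1 changed by 1.47 ± 0.18, Rarg by 0.57 ± 0.15, Cyp26b1 by 0.53 ± 0.15 and Rarb by 0.49 ± 0.15 (log2, SE, edgeR adjusted p = 1.6e-05, 0.0130, 0.0216 and 0.0311). The last 3 were close to the threshold: Rarg was lost without young 1 (0.45, adjusted p = 0.103), Cyp26b1 without young 1 or 2 or aged Ri 1 or 3 (0.44 to 0.52, adjusted p = 0.0577 to 0.138), and Rarb without young 1, 2 or 3 or aged Ri 1 or 3 (0.36 to 0.50, adjusted p = 0.0642 to 0.199). With the share of counts at gene ends as a covariate, Aldh1a1 alone was called. For Rarg, batch 3, with a single library per group, went the other way, at 0.86, 0.80 and -0.13 in batches 1 to 3. For Rara and Rxra the log2 fold changes were 0.03 and -0.09. Rarg peak 1, at the shared end, was lower in aged Ri by the estimate (-0.81, edgeR adjusted p = 0.0909), and it passed without aged Ri 1 (-1.09, adjusted p = 0.0314) and under 3 settings given in the closing section. Rarg peak 3 passed without young 4 or aged Ri 5 (0.94 and 0.84, edgeR adjusted p = 0.0106 and 0.0226), and Rara peak 7 without young 4 (1.24, adjusted p = 0.0443).

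The rest of the pathway was read from 4 lists of other genes, first in single peaks and then in gene sums. Of the genes of retinoid metabolism and carriage, 17 of 22 had peaks, and of their 49 tested peaks 1 was higher and 0 lower in aged than in young cells, against 4.45% higher and 1.26% lower of all peaks. The higher one was in Dhrs3 (chr4:144898062-144898761), a retinal reductase, at 68.9 ± 16.7 CPM in aged Ri, 59.1 ± 20.7 CPM in aged and 27.9 ± 11.7 CPM in young libraries (2.13-fold, edgeR adjusted p = 0.0119). The median log2 fold change of the 49 peaks was -0.01, and that of all peaks -0.01. Among the receptor partners and coregulators, 3 of 76 peaks were higher and 0 lower, against the same 4.45% and 1.26%. They included peaks of Nrip1, a corepressor (2.58-fold, edgeR adjusted p = 0.00519), and Tbl1xr1, a subunit of corepressor complexes (2.27-fold, edgeR adjusted p = 0.0367).

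Of the genes known to respond to retinoic acid, all 12 had peaks, and of 62 tested peaks 4 were higher and 1 lower in aged than in young cells, against 4.45% and 1.26% of all peaks. The one with the smallest adjusted p was in Tgm2, a transglutaminase, at 56.9 ± 12.9 CPM in aged Ri, 60.5 ± 22.7 CPM in aged and 22.5 ± 5.99 CPM in young libraries (2.53-fold, edgeR adjusted p = 0.00128). Peaks nearest to Hoxb1 (3.00-fold) and in Meis1 (2.22-fold), both homeobox genes, were higher with edgeR adjusted p of 0.0136 and 0.0173. A peak nearest to Ccr9, a chemokine receptor, was lower, at 17.8 ± 5.37 CPM in aged and 36.4 ± 5.07 CPM in young libraries (edgeR adjusted p = 0.0355). Of 37 peaks of the other aldehyde dehydrogenases, 1 was higher and 0 lower, against the same shares of all peaks: a peak in Aldh3a1 (2.58-fold, edgeR adjusted p = 0.0155).

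In aged Ri against aged cells, 1 peak of the 4 lists was called, against 0.446% of all peaks. It was a second Dhrs3 peak (chr4:144908660-144909359), at 20.5 ± 6.58 CPM in aged Ri, 8.79 ± 1.15 CPM in aged and 8.70 ± 2.03 CPM in young libraries (2.28-fold over aged, edgeR adjusted p = 0.0299). In aged Ri against young cells, 5 peaks were higher and 1 lower in the metabolism list, 2 higher and 0 lower among the coregulators, 6 higher and 1 lower among the responsive genes, and 3 higher and 4 lower among the other dehydrogenases. Of all peaks, 7.9% were higher and 3.56% lower in that comparison. The called dehydrogenase peaks included Aldh1l1, a folate enzyme (77.0 ± 25.5 CPM in aged Ri, 49.8 ± 14.9 CPM in aged and 28.4 ± 5.75 CPM in young libraries), and Aldh3b1 (4.42 ± 2.48, 6.00 ± 4.18 and 14.6 ± 9.51 CPM in aged Ri, aged and young libraries). Their edgeR adjusted p for aged Ri over young was 0.000745 and 0.0380. By gene sums, aged over young gave 1 of 17 metabolism genes higher, and 2 of 12 responsive genes higher and 1 lower. The 13 coregulators and 14 dehydrogenases gave 0, against 4.46% higher of all genes. In aged Ri over young, 3 metabolism sums were higher and 1 lower, 5 responsive sums were higher, and 1 dehydrogenase sum was higher. No coregulator sum passed there, against 8.45% higher of all genes. The shares of all genes that were lower are not given.

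The genes whose summed accessibility followed Aldh1a1 most closely over the 14 libraries, after centring each batch, were Ros1 (Pearson r = 0.98), Nupr1 (0.971), Trim47 (0.963), Tmem132b (0.963) and 1700011L22Rik (0.962), among 7120 genes with a mean summed count of at least 100. Ros1, for example, had 53.9 ± 16.9 CPM in aged Ri, 77.1 ± 32.1 CPM in aged and 11.4 ± 3.91 CPM in young libraries. Of the retinoic acid genes, Rarb was the closest to Aldh1a1 (r = 0.886, place 118), followed by Cyp26b1 (0.765) and Rarg (0.765), while Rxra (-0.238) and Rara (-0.499) were not alike. The libraries share their age groups, so these values describe likeness across the same groups and carry no test.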

How the data were processed

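Raw counts per consensus peak and library were deposited by the authors for 14 ATAC-seq libraries on mm10. The submitters' processing notes name SAMtools 1.14, R 4.2.0 and featureCounts. How reads were aligned, peaks called, duplicates handled and Tn5 cuts shifted is not given in the sources used here. The peak positions come from the deposited consensus peak list.

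Peaks were assigned to the nearest of 21887 protein-coding gene spans within 50 kb (RefSeq, GRCm38.p6). Tests used R 4.3.3 and edgeR 4.0.16 on the deposited counts of all 14 libraries (low counts removed by filterByExpr, TMM scaling, a robust quasi-likelihood model of group and sequencing batch), with Benjamini-Hochberg adjustment over 56235 peaks or 16561 genes and a threshold of 0.05. Gene sums add the peaks nearest to a gene. CPM are on the TMM scale, not adjusted for batch, and batch-centred log values used a prior count of 2. Standard errors follow from the quasi-likelihood F statistic. DESeq2 1.42.0 served as an alternative, with the others named in the closing section. The fits were tested on simulated data.

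The genes examined, the gene lists and the rule for named peaks were chosen with earlier results of these data known. The rule names every called peak, the strongest peak of each gene, peaks within 1 kb of a gene end, gene sums, the 5 genes most like Aldh1a1, and up to 4 called peaks per list and comparison. A coregulator peak and a B cell marker are not reported here. Peaks named outside it are Aldh1a1 peaks 1 and 2, Rara peaks 2 and 7, and Rarb peaks 3 and 9.

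Same-numbered aged Ri and aged libraries share a batch by the labels. Over the 25903 peaks that average 20 counts or more, their deviations from the group means correlated at 0.365, 0.137, 0.645, 0.276 and 0.544. The labels do not say whether these libraries are pairs, and the effect of a shared batch was not separated from a pairing. The main model has no term for the replicate number. The value with that number as a block is given where it changed a call. Same-numbered young and aged or aged Ri libraries correlated at -0.278 to 0.0734 and are not pairs. Motif windows are the 250 bases before RefSeq starts, searched on both strands.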

Additional observations from a re-analysis of the deposited data

Results flagged for a closer look

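Of 78 groups of values examined at the named peaks and gene sums, 3 held a library far from the others of its group, where chance gives about 1 in 20. Aldh1a7 peak 1 had 1.94 CPM in aged Ri 3, and the other aged Ri libraries had 3.60 to 4.45 CPM. Rara peak 4 had 28.6 CPM in aged Ri 1, and the other aged Ri libraries had 53.3 to 65.5 CPM. Aged 1, the same-numbered aged library, was also the lowest of its group at that peak, at 20.9 CPM. The Cyp26b1 sum was 74.5 CPM in young 4, and the other young libraries had 56.3 to 58.0 CPM.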

How the results depend on the processing

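The direction and the call of Aldh1a1 peaks 3 and 4 and of the Aldh1a1 sum held in aged over young and in aged Ri over young under every alternative run: DESeq2, no filter on low counts, no batch term, the 2 groups alone, trended offsets, the gene-end share as a covariate, the replicate block, spans of the genes alone (sum) and each library left out. With no filter, DESeq2, no batch term, trended offsets or 2 groups, counts of called members stayed within 1.5 times, although single calls were lost. In aged Ri over young, the Rarg sum missed the threshold with no batch term (0.49, edgeR adjusted p = 0.0883). The Rarb sum missed it with trended offsets (0.41, edgeR adjusted p = 0.0584). Cyp26b1 peak 8 missed it with trended offsets (0.74, edgeR adjusted p = 0.0587) and the 2 groups alone (0.91, 0.0511). When the share at gene ends was a covariate, the sums called fell to 1 in aged over young and 1 in aged Ri over young, and the peaks called in aged Ri over young to 3 (2 higher, 1 lower). With the replicate block, 8 peaks were called in aged over young (6 higher, 2 lower), 2 in aged Ri over aged (both higher) and 10 in aged Ri over young (8 higher, 2 lower); same numbers do not pair young libraries with the others. With that block Rara peaks 3 and 4 and the Rara sum passed as lower in aged than in young cells (-0.96, -0.77 and -0.40, edgeR adjusted p = 0.00675, 0.0279 and 0.0328). In aged Ri over young, Rarg peak 1 passed as lower with the covariate (-1.67, edgeR adjusted p = 0.0402), trended offsets (-0.95, 0.0408) and the block (-1.06, 0.0401), and Rara peak 3 with the block (-0.66, 0.0356). Leaving out single libraries gave 2 to 8 peaks and 1 to 3 sums in aged over young, 0 of both in aged Ri over aged, and 3 to 11 peaks and 1 to 4 sums in aged Ri over young. Shares of all peaks or genes under these settings are not given, apart from the replicate block in aged Ri over aged. Rarb peak 12 in aged over young missed the threshold with DESeq2 (1.08, adjusted p = 0.0534), no batch term (1.13, 0.0647), the covariate (0.99, 0.473), trended offsets (0.94, 0.0746) and the 2 groups alone (1.15, 0.0502).

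Signs turned at the results given here, and the cause was not tested. In log2 fold changes for aged over young, the covariate gave 0.040 (Cyp26b1 peak 6), 0.019 (Rara peak 4), -0.033 (Rara peak 7), 0.0049 (Rxra peak 10), and fits of 2 groups gave 0.011 (Cyp26b1 peak 6), 0.0090 (Rxra peak 10). For aged Ri over young, the covariate gave 0.41 (Rara peak 4), 0.012 (Rxra peak 2). Trended offsets gave -0.076 (Cyp26b1 peak 6), -0.057 (Rara sum), 0.030 (Rara peak 4), -0.044 (Rarb peak 11), -0.11 (Rarg peak 6), -0.019 (Rxra peak 10). The replicate block gave -0.041 (Cyp26b1 peak 6), -0.065 (Rara sum), -0.24 (Rarg peak 6), -0.037 (Rxra peak 10), and no batch term -0.13 (Rarg peak 6). For aged Ri over aged, spans alone gave 0.018 (Rxra sum). With single libraries left out, ranges across 0 in aged over young were -0.056 to 0.42 (Aldh1a7 peak 1), -0.093 to 0.054 (Cyp26b1 peak 6), -0.31 to 0.27 (Rara peak 7), -0.18 to 0.075 (Rarb peak 11), -0.031 to 0.44 (Rarg peak 2), -0.11 to 0.026 (Rxra sum), -0.22 to 0.083 (Rxra peak 10). In aged Ri over aged they were -0.16 to 0.026 (Aldh1a1 peak 3), -0.061 to 0.13 (Cyp26b1 peak 6), -0.52 to 0.044 (Rara peak 12), -0.17 to 0.0018 (Rarb sum), -0.066 to 0.17 (Rarb peak 12), -0.017 to 0.30 (Rarg peak 3), -0.086 to 0.017 (Rxra sum), -0.055 to 0.27 (Rxra peak 10). In aged Ri over young they were -0.070 to 0.10 (Cyp26b1 peak 6), -0.050 to 0.092 (Rara sum), -0.31 to 0.11 (Rara peak 4), -0.024 to 0.23 (Rarb peak 11), -0.21 to 0.28 (Rarg peak 6), -0.076 to 0.13 (Rxra peak 10).

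Depth limits the weak peaks most: Aldh1a7 peak 1 averaged 9.57 counts per library, and intervals of single peaks there are wide.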
